A study of Mus musculus with 12 samples.

Results

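The genes described here carry the type I interferon signal from the cell surface to the nucleus. They were taken as a list of 9 names. Ifnar1 and Ifnar2 encode the receptor chains, and Jak1 and Tyk2 the kinases bound to them. Stat2 and Irf9 encode parts of the ISGF3 transcription factor complex. Irf7 and Irf1 encode further transcription factors of the interferon regulatory factor (IRF) family, and Socs1 an inhibitor of the JAK kinases. All 9 were among the 56287 entries of the table, and all 9 passed the filter on low counts that left 14694 genes. RNA was sequenced from L929, an established mouse fibroblast line of wild-type genotype, in 12 libraries that the labels place in 4 groups of 3.

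Mock cells were 1 group. The HT-DNA group was transfected with HT-DNA in a lipid reagent for 6 h, at a labelled dose of 0.5 whose unit is written in a garbled order, read here as µg per ml. The HT-DNA+AOA group received 0.5 mM AOA from 1 h before the same DNA. The HT-DNA+AOA+Asp group received 20 mM Asp as well. In this field AOA usually stands for aminooxyacetate, an inhibitor of aminotransferases, and Asp for aspartate; the labels spell out neither. Whether mock cells received the lipid reagent is not stated. No group with AOA or Asp but without HT-DNA was analysed here, and every library came from a single cell line. The labels do not say that the replicates came from different cultures. The p-values therefore rest on the variation among these libraries, which may be technical.

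Type I interferon binds a receptor made of Ifnar1 and Ifnar2. The kinases Tyk2 and Jak1 then phosphorylate STAT factors, among them Stat2, which joins Irf9 in ISGF3, and ISGF3 binds the interferon-stimulated response element (ISRE) of its target genes. Other STAT complexes bind another element, GAS, and Irf1 and Socs1 are classic genes of that branch. Irf7 is itself a target of ISGF3 and drives interferon alpha genes. In fibroblasts, DNA in the cytosol is sensed through cGAS and STING, which activate Irf3 and the gene for interferon beta.

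The bases just before the start of each gene are shown for 4 members, because they hold or lack the letters that ISGF3 and other STAT complexes are known to bind. They are RefSeq windows of 250 bases upstream of the start on build GRCm38.p6, written 5′ to 3′ on the gene's strand, with motif matches in capitals. The motifs, searched on both strands, were the ISRE core, GAAA repeated after a gap of 2 bases, and the GAS element TTCNNNGAA.
Stat2, chr10:128270248-128270497, plus strand: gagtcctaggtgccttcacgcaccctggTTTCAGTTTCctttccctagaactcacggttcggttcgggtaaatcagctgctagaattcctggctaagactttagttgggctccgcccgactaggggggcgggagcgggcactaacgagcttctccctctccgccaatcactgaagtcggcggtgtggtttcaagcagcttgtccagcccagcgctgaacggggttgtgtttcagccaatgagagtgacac
Irf1, chr11:53769764-53770013, plus strand: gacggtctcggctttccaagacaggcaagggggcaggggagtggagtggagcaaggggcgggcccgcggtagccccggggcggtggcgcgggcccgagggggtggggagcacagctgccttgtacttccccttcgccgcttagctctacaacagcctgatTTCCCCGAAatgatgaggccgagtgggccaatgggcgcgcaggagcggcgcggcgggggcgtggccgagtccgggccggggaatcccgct
Socs1, chr16:10785537-10785786, minus strand: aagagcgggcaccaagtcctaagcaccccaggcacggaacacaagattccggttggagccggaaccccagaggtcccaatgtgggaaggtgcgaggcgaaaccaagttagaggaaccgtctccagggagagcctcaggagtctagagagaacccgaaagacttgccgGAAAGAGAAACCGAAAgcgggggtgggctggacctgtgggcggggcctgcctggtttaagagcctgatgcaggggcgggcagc
Tyk2, chr9:21131276-21131525, minus strand: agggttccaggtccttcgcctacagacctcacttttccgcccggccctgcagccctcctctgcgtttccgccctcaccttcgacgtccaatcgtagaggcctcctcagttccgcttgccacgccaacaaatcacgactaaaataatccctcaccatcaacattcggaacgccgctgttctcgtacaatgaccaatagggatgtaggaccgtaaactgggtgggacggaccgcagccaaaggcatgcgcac
The Stat2 window held the ISRE core on the opposite strand, 222 to 213 bases before the start. The Irf1 window held a GAS match 90 to 82 bases before the start. The Socs1 window held 2 overlapping ISRE cores, at 83 to 74 and at 77 to 68 bases before the start. The Tyk2 window held neither motif. Among the other members, the Ifnar2 window held a GAS match 214 to 206 bases before the start, and neither motif was found in the windows of Ifnar1, Jak1, Irf9, Irf7 or a second Irf1 start. The kB motif of NF-kB, GGG and TTTCC with a gap of 2 bases, matched 0 of the 11 windows of the 9 members. Over 32851 such windows of 27025 genes, 2.98% held the ISRE core, 7.02% the GAS element and 1.41% the kB motif. For Stat2, Tyk2 and Ifnar1, bases just after the start were not found in the gene's GENCODE M21 transcripts. The position of these windows thus rests on the RefSeq start alone. A match is a description of these letters, and no match says only that the letters are not in this window.

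The libraries held 19944571 to 27309291 estimated counts. Levels below are CPM, each library's counts scaled to a common total, and fold changes were tested with edgeR's quasi-likelihood test, with p-values adjusted over all 14694 genes. A gene was called when its adjusted p was under 0.05. The summed level of 6 fibroblast markers, most of it Vim, lay at 3440 to 3460 CPM in mock and 3850 to 4210 in HT-DNA. It lay at 3270 to 3390 in HT-DNA+AOA and 3660 to 3760 in HT-DNA+AOA+Asp. With HT-DNA, mean Vim rose from 2843 CPM in mock to 3624. Pdgfrb fell from 287.5 to 164.8 CPM and Col1a2 from 164.4 to 124.7, and the other 2 tested were not called. All 5 of these markers that were tested fell with AOA in edgeR, 4 of them in DESeq2. Of 6 macrophage and leukocyte markers, 2 were tested and Adgre1 was at 0 in all libraries. Their sum, most of it Cd68, was 287 to 310 CPM in mock, 246 to 253 in HT-DNA, 319 to 360 in HT-DNA+AOA and 245 to 256 in HT-DNA+AOA+Asp. The part of these shifts in the results below was not tested. In bulk RNA, fewer cells of a type and less RNA per cell cannot be told apart.

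The ligands came first in the order of the pathway and were close to the detection floor. None of 21 listed interferon genes passed the filter, so none was tested. The 18 type I genes together had 3, 0 and 0 estimated counts in the mock libraries and 4, 2 and 1 in the HT-DNA libraries. They had 3, 7 and 6 in HT-DNA+AOA and 1, 2 and 3 in HT-DNA+AOA+Asp. Ifnb1, the gene for interferon beta, had 1 count in each of HT-DNA+AOA replicates 2 and 3 and 0 in the other libraries. A floor of 3 counts in a library corresponds to 0.110 to 0.150 CPM of its unadjusted total, which covers counting error only.

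Across the 9 members, HT-DNA against mock raised Stat2, Irf1 and Socs1 and lowered Ifnar1 and Tyk2. That was 5 of 9 members called, 3 higher and 2 lower, beside 41.0% of all genes tested, 21.2% higher and 19.8% lower. Scaling by library size moved the split over all genes from 3112 higher and 2911 lower to 2417 and 3740. The median log2 fold change of the members was 0.07, against -0.01 for all genes tested. AOA on top of HT-DNA raised Irf7, Irf9, Stat2 and Irf1 and lowered Tyk2, Ifnar1 and Jak1, so 7 of 9 members were called beside 52.0% of all genes, 25.5% higher and 26.5% lower. Scaling by library size moved that split from 3750 higher and 3896 lower to 3116 and 4615. Asp on top of AOA raised Tyk2, Ifnar1 and Jak1 and lowered Irf7, Irf9, Socs1, Irf1 and Ifnar2, so 8 of 9 were called beside 54.7% of all genes, 28.3% higher and 26.4% lower. The same scaling moved this split from 4165 higher and 3874 lower to 4842 and 3209. HT-DNA+AOA+Asp differed from HT-DNA in 3 of 9 members, with Stat2 and Jak1 higher and Socs1 lower, beside 18.5% of all genes, 10.4% higher and 8.15% lower. Neighbouring comparisons share libraries, so an opposite sign in the AOA and the Asp comparison is in part built in by the HT-DNA+AOA libraries they share.

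**Figure D1:**
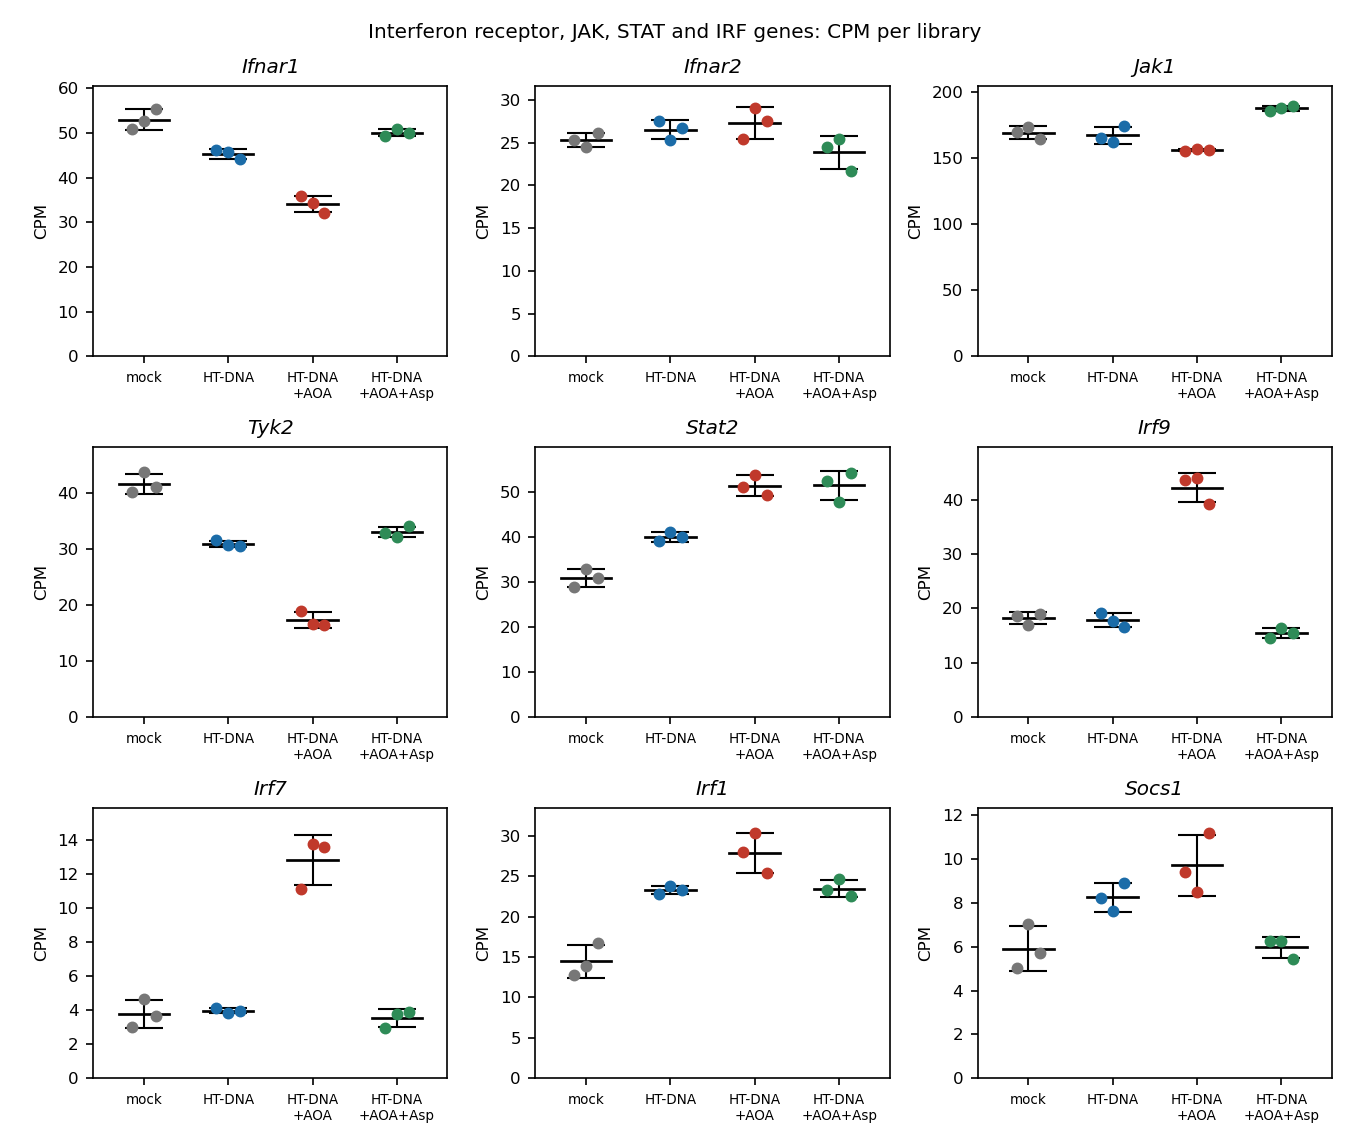
CPM of each of the 9 genes (y axis, linear, from 0) in each library (points) of the 4 groups (x axis), with the mean as a wide bar and the SD over n = 3 libraries as whiskers. Irf9 and Irf7 stand high in HT-DNA+AOA only, Ifnar1 and Tyk2 are lowest there, and Stat2 stays near 51 CPM in HT-DNA+AOA+Asp.

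Ifnar1, the receptor chain that carries Tyk2, was at 50.9, 52.8 and 55.4 CPM in mock and at 46.1, 45.9 and 44.1 CPM in HT-DNA. It was at 35.9, 34.3 and 32.2 CPM in HT-DNA+AOA and at 49.3, 50.9 and 50.1 CPM in HT-DNA+AOA+Asp. The 3 HT-DNA+AOA libraries were the lowest, the HT-DNA libraries came next, and the mock and HT-DNA+AOA+Asp ranges overlapped. Ifnar1 fell by 0.23 on the log2 scale with HT-DNA (SE 0.053, edgeR adjusted p = 0.00164) and by 0.41 more with AOA (SE 0.055, edgeR adjusted p = 1.88e-06). Asp raised it by 0.55 (SE 0.055, edgeR adjusted p = 2.32e-08). In the order of levels, mock against HT-DNA+AOA+Asp gave an edgeR adjusted p of 0.249 and HT-DNA+AOA+Asp against HT-DNA one of 0.0700, so neither pair of neighbours was called.

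Ifnar2, the chain that carries Jak1, stayed within 21.7 to 29.1 CPM in all 12 libraries. Its libraries held 25.4, 24.5 and 26.1 CPM in mock, 27.6, 25.3 and 26.8 in HT-DNA, 25.4, 29.1 and 27.5 in HT-DNA+AOA, and 24.5, 25.4 and 21.7 in HT-DNA+AOA+Asp. The ranges of all 4 groups overlapped. The log2 fold change was 0.07 with HT-DNA (95% interval -0.08 to 0.22) and 0.05 with AOA (-0.10 to 0.19), and neither was called. Ifnar2 fell by 0.20 with Asp (SE 0.072, edgeR adjusted p = 0.0224). Scaling by library size ended that call (edgeR adjusted p = 0.0950), and so did leaving out HT-DNA+AOA replicate 2 (0.111) or HT-DNA+AOA+Asp replicate 3 (0.159).

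Within the libraries, the balance of the receptor chains differed between groups. The ratio of Ifnar1 to Ifnar2 counts was 2.09 ± 0.0788 (SD, n = 3) in mock and 1.71 ± 0.0875 in HT-DNA. It was 1.25 ± 0.137 in HT-DNA+AOA and 2.11 ± 0.172 in HT-DNA+AOA+Asp. Mock and HT-DNA+AOA+Asp overlapped, and every other pair of groups was separate. With 3 libraries against 3, a two-sided exact permutation test cannot give a p below 0.1, which the separate pairs reached, and 24 such tests over 4 ratios gave them an adjusted p of 0.133. These ratios do not depend on how libraries are scaled. Ifnar1 counts were not whole numbers in any library, so some of its reads may be shared with another gene.

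Tyk2, the kinase bound to Ifnar1, was at 40.3, 43.8 and 41.2 CPM in mock and at 31.6, 30.8 and 30.6 CPM in HT-DNA. It was at 19.0, 16.6 and 16.6 CPM in HT-DNA+AOA and at 33.0, 32.3 and 34.1 CPM in HT-DNA+AOA+Asp. The 4 groups did not overlap, with HT-DNA+AOA lowest and mock highest. Tyk2 fell by 0.43 with HT-DNA (SE 0.061, edgeR adjusted p = 6.66e-06) and by 0.84 more with AOA (SE 0.066, edgeR adjusted p = 8.06e-10). Asp raised it by 0.93 (SE 0.066, edgeR adjusted p = 1.27e-10). HT-DNA+AOA+Asp lay 0.10 above HT-DNA (95% interval -0.03 to 0.23), which was not called, and was 0.33 below mock (edgeR adjusted p = 0.000230).

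Jak1, the kinase bound to Ifnar2, varied less. Its level was 169.5, 173.6 and 164.2 CPM in mock, 164.8, 162.2 and 174.4 in HT-DNA, 155.5, 156.8 and 155.7 in HT-DNA+AOA, and 185.7, 187.3 and 189.2 in HT-DNA+AOA+Asp. Mock and HT-DNA overlapped, the HT-DNA+AOA libraries were the lowest and the HT-DNA+AOA+Asp libraries the highest. Raver2, which shares exon positions with Jak1 in GENCODE M21, had 6 to 32 counts. The log2 fold change of Jak1 with HT-DNA was -0.02 (95% interval -0.10 to 0.07). Jak1 fell by 0.10 with AOA (SE 0.041, edgeR adjusted p = 0.0487), a call lost in 16 of 19 alternatives with adjusted p up to 0.186. The alternatives that lost it included leaving out any library other than mock replicate 3 and HT-DNA replicate 2. Asp raised Jak1 by 0.26 (SE 0.041, edgeR adjusted p = 1.11e-05), and HT-DNA+AOA+Asp was 0.17 above HT-DNA (SE 0.041, edgeR adjusted p = 0.00686). Leaving out HT-DNA replicate 2 ended the latter call (edgeR adjusted p = 0.0574).

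The ratio of Tyk2 to Jak1 counts was 0.247 ± 0.00802 (SD, n = 3) in mock, 0.186 ± 0.00886 in HT-DNA, 0.112 ± 0.00910 in HT-DNA+AOA and 0.177 ± 0.00399 in HT-DNA+AOA+Asp. HT-DNA and HT-DNA+AOA+Asp overlapped (exact permutation p = 0.3), and the other pairs of groups were separate at the smallest p of 0.1.

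**Figure D2:**
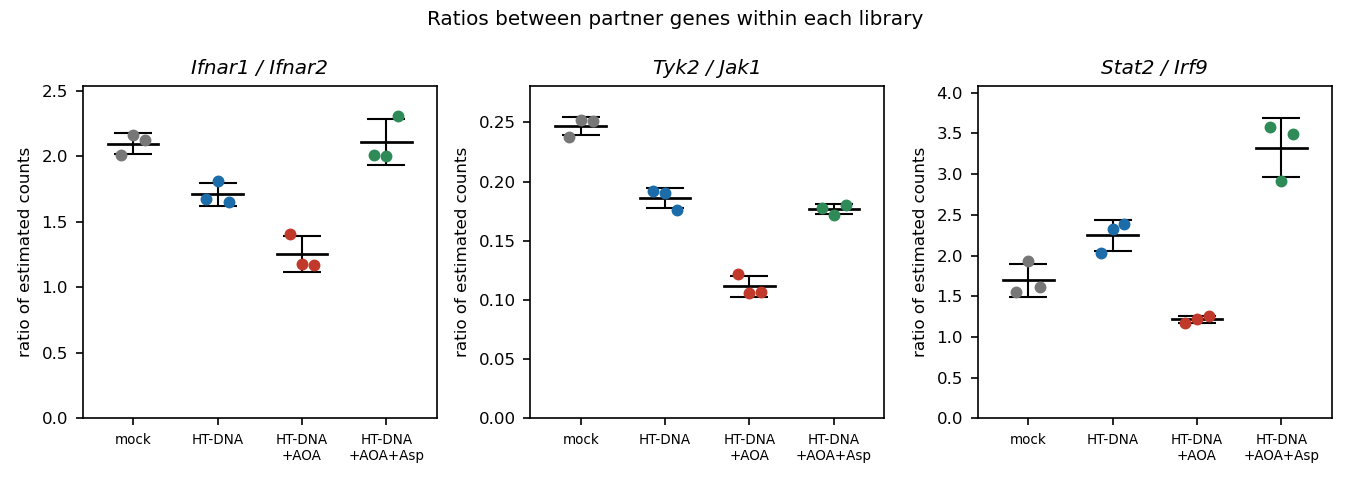
Ratio of the estimated counts of partner genes (y axis, linear, from 0) in each library (points) by group (x axis), with mean and SD over n = 3 libraries. Ifnar1 to Ifnar2 and Tyk2 to Jak1 are lowest in HT-DNA+AOA, and Stat2 to Irf9 runs from 1.22 in HT-DNA+AOA to 3.33 in HT-DNA+AOA+Asp.

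Stat2 and Irf9, both parts of ISGF3, followed different courses. Stat2 was at 28.8, 32.9 and 30.8 CPM in mock and at 39.0, 41.1 and 39.9 CPM in HT-DNA. It was at 51.0, 53.7 and 49.2 CPM in HT-DNA+AOA and at 52.2, 47.7 and 54.1 CPM in HT-DNA+AOA+Asp. The groups with AOA overlapped each other and lay above HT-DNA, which lay above mock. Stat2 rose by 0.38 with HT-DNA (SE 0.063, edgeR adjusted p = 4.78e-05) and by 0.36 more with AOA (SE 0.061, edgeR adjusted p = 3.39e-05). With Asp the log2 difference was 0.00, with a 95% interval of -0.12 to 0.13 (edgeR adjusted p = 0.975). HT-DNA+AOA+Asp was still 0.36 above HT-DNA (SE 0.061, edgeR adjusted p = 0.000304).

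Irf9, the DNA-binding partner in ISGF3, was at 18.6, 17.0 and 19.1 CPM in mock and at 19.2, 17.6 and 16.7 CPM in HT-DNA. It was at 43.6, 43.9 and 39.1 CPM in HT-DNA+AOA and at 14.6, 16.4 and 15.5 CPM in HT-DNA+AOA+Asp. Mock and HT-DNA overlapped, the HT-DNA+AOA libraries were far above all others, and the HT-DNA+AOA+Asp libraries were the lowest. The log2 fold change with HT-DNA was -0.03 (95% interval -0.19 to 0.13). Irf9 rose by 1.24 with AOA, a 2.36-fold rise (SE 0.073, edgeR adjusted p = 7.90e-12), and 497 of the genes tested had a larger log2 fold change. With Asp it fell by 1.44 (SE 0.075, edgeR adjusted p = 1.03e-12).

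HT-DNA+AOA+Asp lay below HT-DNA in Irf9 by -0.20 on the log2 scale (95% interval -0.37 to -0.04), which was not called (edgeR adjusted p = 0.0806), though without HT-DNA replicate 3 it was (0.0449). Against mock it was lower by -0.23 (edgeR adjusted p = 0.0273). Leaving out mock replicate 1 (0.0743) or 3 (0.0964) or HT-DNA+AOA+Asp replicate 1 (0.121) or 3 (0.0683) ended that call. Irf9 shares exon positions with Rnf31, a ubiquitin ligase gene on the same strand, in the GENCODE M21 annotation. Rnf31 had 464 to 825 estimated counts in a library, and reads of the shared bases may have been split between these genes. Its log2 fold change was 0.54 with AOA and -0.09 with Asp, the latter not called.

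The ratio of Stat2 to Irf9 counts was 1.70 ± 0.202 (SD, n = 3) in mock and 2.25 ± 0.193 in HT-DNA. It was 1.22 ± 0.0446 in HT-DNA+AOA and 3.33 ± 0.368 in HT-DNA+AOA+Asp. All 6 pairs of groups were separate, each at the exact permutation p of 0.1 that is the smallest possible.

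Irf7, which drives interferon alpha genes, had the largest rise with AOA among the members. It was at 3.02, 4.65 and 3.64 CPM in mock and at 4.11, 3.85 and 3.95 CPM in HT-DNA. It was at 11.1, 13.7 and 13.5 CPM in HT-DNA+AOA and at 2.95, 3.79 and 3.88 CPM in HT-DNA+AOA+Asp. The HT-DNA+AOA libraries were above all others, and the other 3 groups overlapped. The log2 fold change with HT-DNA was 0.07 (95% interval -0.26 to 0.40). Irf7 rose by 1.69 with AOA, a 3.23-fold rise (SE 0.14, edgeR adjusted p = 1.85e-09), and 251 of the genes tested had a larger log2 fold change. It fell by 1.85 with Asp (SE 0.15, edgeR adjusted p = 5.82e-10).

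HT-DNA+AOA+Asp against HT-DNA gave -0.16 for Irf7 (95% interval -0.50 to 0.17), and against mock -0.09 (-0.43 to 0.25), neither called. Irf7 overlaps exons of Phrf1, a gene on the opposite strand that had 2160 to 3359 estimated counts in a library. Phrf1 had log2 fold changes of 0.29 with AOA and -0.27 with Asp. The estimated counts of Irf7 were whole numbers in all 12 libraries, from 63 to 357, and so show no fractional split with Phrf1. The strand setting of the counting is unknown here, so which gene received reads of shared bases was not determined. The ratio of Irf7 to Irf9 counts was 0.223 ± 0.0121 (SD, n = 3) in HT-DNA, 0.305 ± 0.0462 in HT-DNA+AOA and 0.228 ± 0.0243 in HT-DNA+AOA+Asp. In mock it was 0.209 ± 0.0572. HT-DNA+AOA was separate from HT-DNA and from HT-DNA+AOA+Asp (exact permutation p = 0.1 each, the smallest possible) and overlapped mock (exact permutation p = 0.2).

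Irf1, a transcription factor of inflammatory and antigen presentation genes, rose most with HT-DNA among the members. It was at 12.7, 14.0 and 16.7 CPM in mock and at 22.7, 23.8 and 23.3 CPM in HT-DNA. It was at 28.0, 30.3 and 25.4 CPM in HT-DNA+AOA and at 23.2, 24.6 and 22.5 CPM in HT-DNA+AOA+Asp. Mock was lowest, HT-DNA and HT-DNA+AOA+Asp overlapped, and HT-DNA+AOA was highest. Irf1 rose by 0.68 with HT-DNA (SE 0.088, edgeR adjusted p = 1.97e-06). It rose by 0.26 with AOA (SE 0.083, edgeR adjusted p = 0.0114), a call lost without HT-DNA+AOA replicate 2 (0.0799).

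With Asp, Irf1 fell by 0.25 (SE 0.084, edgeR adjusted p = 0.0147). Scaling by library size (0.0511) ended that call, as did fits without HT-DNA+AOA replicate 2 (0.0974) and HT-DNA+AOA+Asp replicate 3 (0.0654). HT-DNA+AOA+Asp against HT-DNA gave 0.01 (95% interval -0.17 to 0.19). Gm17334, on the opposite strand of Irf1, had 5.18 to 26.0 estimated counts. Counts of neither gene were whole numbers in any library, so some reads may have been split between these genes.

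Socs1, which binds JAK kinases and blocks them, was at 5.02, 7.04 and 5.69 CPM in mock and at 8.22, 7.62 and 8.90 CPM in HT-DNA. It was at 9.42, 8.49 and 11.2 CPM in HT-DNA+AOA and at 6.27, 6.24 and 5.43 CPM in HT-DNA+AOA+Asp. HT-DNA and HT-DNA+AOA overlapped and lay above the other 2 groups, which also overlapped. Socs1 rose by 0.47 with HT-DNA (SE 0.13, edgeR adjusted p = 0.00596). With AOA the difference was 0.24 (95% interval -0.03 to 0.50) and was not called. Socs1 fell by 0.70 with Asp (SE 0.13, edgeR adjusted p = 0.000116), and HT-DNA+AOA+Asp was at 0.01 against mock (95% interval -0.28 to 0.30).

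HT-DNA+AOA+Asp was below HT-DNA in Socs1 by -0.46 (SE 0.13, edgeR adjusted p = 0.0187). That call was lost without HT-DNA replicate 1 (0.0529) or 3 (0.0539) and without HT-DNA+AOA+Asp replicate 3 (0.0996).

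**Figure D3:**
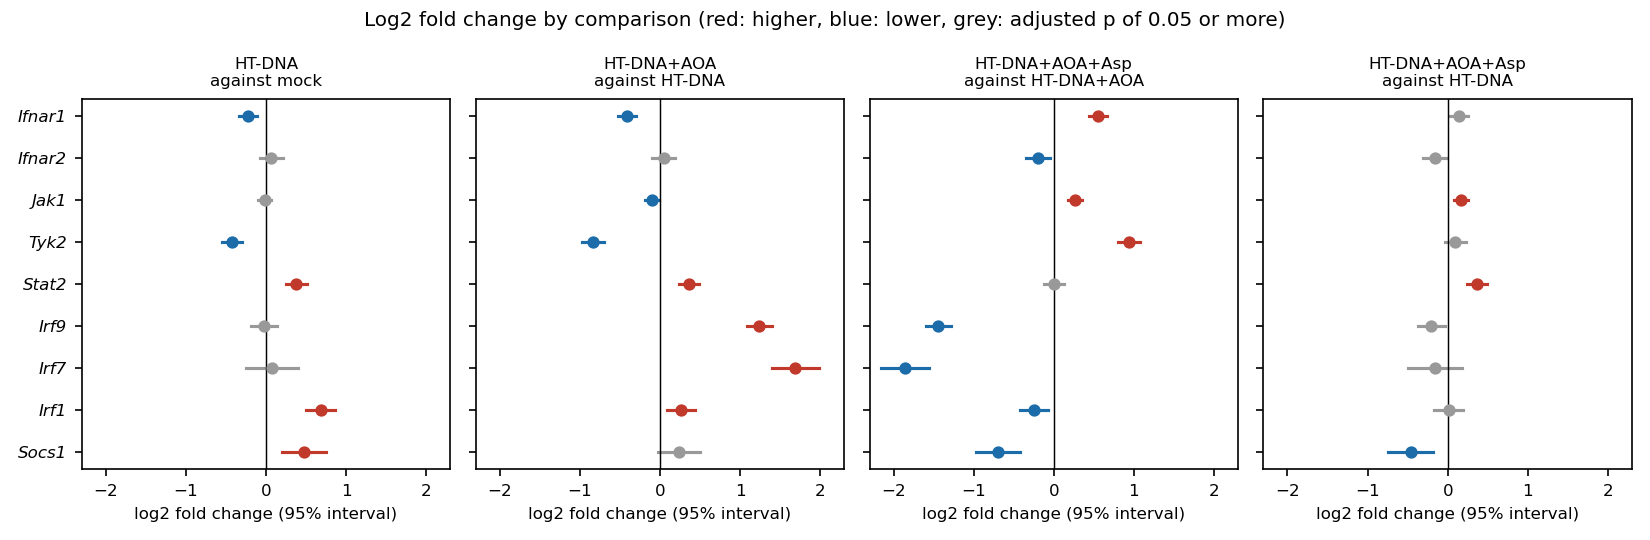
Log2 fold change (x axis) of the 9 genes in 4 comparisons, with 95% intervals as bars over 3 libraries a group. Red and blue mark genes called higher and lower and grey those not called; Irf7 moves by 1.69 with AOA and by -1.85 with Asp, while Stat2 is at 0.00 with Asp and 0.36 in HT-DNA+AOA+Asp against HT-DNA.

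Set against mock, HT-DNA+AOA differed in 8 of 9 members, 5 higher and 3 lower, beside 61.2% of all genes tested, 30.4% higher and 30.7% lower. Ifnar2 was the member not called. Tyk2 was lower by -1.26 and Ifnar1 by -0.64, while Irf7 was higher by 1.76, Irf9 by 1.21, Irf1 by 0.94, Stat2 by 0.74 and Socs1 by 0.71, on the log2 scale. Jak1 was lower by -0.12 (edgeR adjusted p = 0.0181), a call lost without mock replicate 2 (0.0823) and without HT-DNA+AOA replicate 3 (0.0530). HT-DNA+AOA+Asp differed from mock in 5 of 9 members, 3 higher and 2 lower, beside 33.9% of all genes, 18.9% higher and 15.0% lower. Scaling by library size moved the splits over all genes from 4473 higher and 4518 lower to 3419 and 5759 for HT-DNA+AOA, and from 2776 and 2200 to 1954 and 3052 for HT-DNA+AOA+Asp. Stat2 was higher by 0.74, Irf1 by 0.69 and Jak1 by 0.15, and Tyk2 and Irf9 were lower. Scaling by library size ended the Jak1 call (edgeR adjusted p = 0.109). The same scaling brought Ifnar1, at -0.08 with an adjusted p of 0.249, to -0.14 with an adjusted p of 0.0375.

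Over all genes, HT-DNA+AOA+Asp against HT-DNA had 2719 calls. This count fell to 1712 without HT-DNA replicate 1, to 1689 without HT-DNA replicate 2, to 1802 without HT-DNA+AOA+Asp replicate 2 and to 1728 without HT-DNA+AOA+Asp replicate 3. The members called in that comparison were 2 or 3 in each of the leave-one-out fits.

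Between genes, levels were compared per length, as CPM per kb of the gene length the authors list. In mock, Jak1 was highest at 34.5 CPM per kb, then Ifnar1 at 19.1, Tyk2 at 9.03, Ifnar2 at 8.31, Stat2 at 7.01, Irf1 at 6.77, Irf9 at 6.16, Socs1 at 2.03 and Irf7 at 1.97. In HT-DNA+AOA, Jak1 was again highest at 31.8 CPM per kb, followed by Irf9 at 14.3, Irf1 at 13.1, Ifnar1 at 12.3 and Stat2 at 11.7. Irf7 was at 6.68 CPM per kb there, above Tyk2 at 3.77 and Socs1 at 3.34. Irf9 thus ranked below only Jak1 in HT-DNA+AOA. At 14.3 ± 0.910 CPM per kb (SD, n = 3), it lay within the spread of Irf1 at 13.1 ± 1.16. Tyk2 moved from 9.03 to 3.77, near the foot of the order.

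Genes outside the list with the most similar profile were found by the root mean square (RMS) difference of centred log2 CPM over 12 libraries, among 9583 genes. For Irf9 these were Nfkbiz at an RMS difference of 0.114 and Plekha3 at 0.126, beside an RMS of 0.573 of Irf9 about its own mean. For Irf7 they were Cdsn at 0.188 and Dbt at 0.201, beside 0.779. For Tyk2 they were Pygb at 0.0643 and Dhx40 at 0.0711, beside 0.467, and for Ifnar1 they were Inppl1 at 0.0371 and Col6a1 at 0.0403, beside 0.248. None of these is a listed pathway gene.

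The nearest to Stat2 were Hivep3 at 0.116 and Cltb at 0.130, beside 0.311 for Stat2 itself. The nearest to Irf1 were Mybbp1a at 0.0949 and Smn1 at 0.105, beside 0.367. The nearest to Socs1 were Sys1 at 0.124 and Trp53rkb at 0.132, beside 0.336. Ifnar2 and Jak1 varied little, with RMS of 0.102 and 0.0987 about their means. Near them were Cnot11 at 0.0558 and Nudt4 at 0.0590 for Ifnar2, and Slc6a6 at 0.0274 for Jak1. Among the members, the closest pairs by this measure were Stat2 with Irf1 at 0.179 and Ifnar2 with Jak1 at 0.185. Irf9 with Irf7 stood at 0.280. The distance of Ifnar2 from Jak1 was larger than either gene's own RMS, so it marks small variation and not a shared profile. Mean Ifnar2 was highest in HT-DNA+AOA at 27.3 CPM and lowest in HT-DNA+AOA+Asp at 23.9 CPM. Mean Jak1 was lowest in HT-DNA+AOA at 156.0 CPM and highest in HT-DNA+AOA+Asp at 187.4 CPM.

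The other receptor chains, JAK kinases and STAT factors moved in both directions. Of 11 tested, 3 rose and 3 fell with HT-DNA, 4 rose and 4 fell with AOA, and 5 rose and 4 fell with Asp. All genes tested also moved both ways, with 21.2% higher and 19.8% lower with HT-DNA. The shares were 25.5% and 26.5% with AOA, and 28.3% and 26.4% with Asp. The median log2 fold changes of the 11 were 0.00, -0.09 and 0.16, beside -0.01, 0.00 and 0.00 for all genes tested. Jak2, a kinase of the interferon gamma receptor, was at 26.5 CPM in mock, 26.6 in HT-DNA, 52.7 in HT-DNA+AOA and 27.8 in HT-DNA+AOA+Asp as group means. It rose by 1.00 with AOA (SE 0.073, edgeR adjusted p = 2.55e-10) and fell by 0.92 with Asp (SE 0.073, edgeR adjusted p = 7.21e-10). Ifngr1, a chain of the interferon gamma receptor, fell by 0.55 with AOA (SE 0.12, edgeR adjusted p = 0.000444) and rose by 0.63 with Asp (SE 0.12, edgeR adjusted p = 0.000103). Il6st, the shared receptor chain of the interleukin 6 family, fell by 0.40 with HT-DNA (SE 0.045, edgeR adjusted p = 2.95e-07).

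Of 6 other IRF factors and IRF2 binding proteins, 2 fell with HT-DNA, 2 rose and 2 fell with AOA, and 1 rose and 2 fell with Asp, with median log2 fold changes of -0.12, 0.05 and -0.13. Irf3, the factor activated by STING, was at 34.5 CPM in mock, 33.2 in HT-DNA, 42.0 in HT-DNA+AOA and 38.2 in HT-DNA+AOA+Asp. It rose by 0.34 with AOA (SE 0.063, edgeR adjusted p = 0.000104), and with Asp the difference was -0.14 (edgeR adjusted p = 0.0665). Of 16 other negative regulators, 4 rose and 3 fell with HT-DNA, 3 rose and 7 fell with AOA, and 7 rose and 4 fell with Asp. Their medians were -0.01, -0.22 and 0.07. Beside both lists, 21.2% of all genes tested rose and 19.8% fell with HT-DNA. The shares were 25.5% and 26.5% with AOA, and 28.3% and 26.4% with Asp. Usp18, which binds Ifnar2 and blocks Jak1, was at 1.53 CPM in mock, 3.50 in HT-DNA, 15.7 in HT-DNA+AOA and 2.71 in HT-DNA+AOA+Asp. It rose by 2.18 with AOA (SE 0.15, edgeR adjusted p = 7.19e-11) and fell by 2.54 with Asp (SE 0.16, edgeR adjusted p = 1.33e-11). Pias3, an inhibitor of STAT factors, fell by 0.64 with AOA (SE 0.078, edgeR adjusted p = 4.29e-07) and rose by 0.88 with Asp (SE 0.077, edgeR adjusted p = 3.42e-09).

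The genes listed as ISGF3 targets, by contrast with the mixed directions above, moved mostly in 1 direction per comparison. Which factor drove them was not tested. Of 25 tested, 19 rose with HT-DNA and 24 rose with AOA, with median log2 fold changes of 1.42 and 1.12, and 24 fell with Asp, with a median of -1.35. Usp18 is also in this list. Of all genes tested, 21.2% rose with HT-DNA, 25.5% rose with AOA and 26.4% fell with Asp. In HT-DNA+AOA+Asp against HT-DNA, 5 of the 25 fell, with a median of -0.17, beside 8.15% of all genes called lower. DESeq2 called 6 lower, and 12 were lower at an unadjusted p under 0.05 in edgeR. Of the 5 calls, Ifih1 was lost in 1, Parp14 in 5 and Ifit3b in 6 of 19 alternatives. Cxcl10, a chemokine, was at 0.154 CPM in mock, 35.6 in HT-DNA, 181 in HT-DNA+AOA and 35.7 in HT-DNA+AOA+Asp. Ifit1, an antiviral RNA-binding protein, was at 0.392, 65.0, 137 and 57.2 CPM in the same order. In HT-DNA against mock, where 19 of the 25 rose and 6 were not called, Irf9 and Irf7 were not called either.

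Of 20 tested IRF1 and GAS targets, 6 rose and 2 fell with HT-DNA, 13 rose and 2 fell with AOA, and 15 fell and 2 rose with Asp. Their medians were 0.07, 0.36 and -0.39. Of all genes tested, 21.2% rose and 19.8% fell with HT-DNA, and 25.5% rose and 26.5% fell with AOA. With Asp, 26.4% fell and 28.3% rose. In HT-DNA+AOA+Asp against HT-DNA, edgeR called 0 of the 20 and DESeq2 called 0, while 2 higher and 2 lower passed an unadjusted p under 0.05 in edgeR. Nos2, the inducible nitric oxide synthase, rose by 1.51 with AOA (SE 0.11, edgeR adjusted p = 3.75e-10) and fell by 1.26 with Asp (SE 0.10, edgeR adjusted p = 3.56e-09). Tap1, a peptide transporter of antigen presentation, fell by 0.70 with Asp (SE 0.055, edgeR adjusted p = 6.01e-10). The lists were chosen with results of these data known, so their counts are a description.

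**Figure D4:**
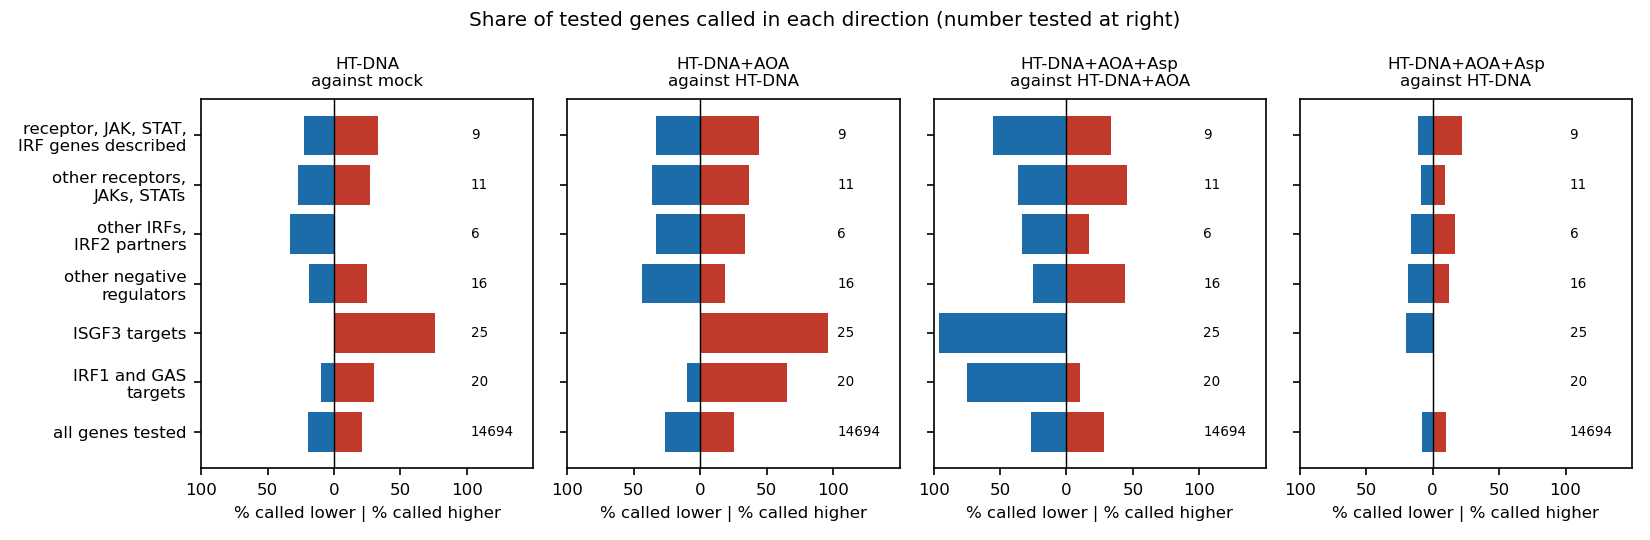
Share of the tested genes of each list called lower (left, blue) and higher (right, red), in percent (x axis), in 4 comparisons, with the number tested at the right of each bar. The 25 genes listed as ISGF3 targets lie almost wholly on 1 side with AOA (24 higher) and with Asp (24 lower). The 9 members and the other regulator lists lie on both sides.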

How the data were processed

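The authors' deposited table holds estimated counts per gene for 12 libraries and a gene length, whose definition is not given. Per the labels' protocols, RNA was extracted with TRIzol. Not given in the sources used here are the aligner, the counter, the strand setting and the build. Of each library's values, 14.4% to 16.6% were not whole numbers. The members, lists and tests were chosen with earlier results of these data known.

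Estimated counts were rounded to whole numbers. With a minimum count of 10 and a minimum total of 15, filterByExpr (edgeR 4.0.16, R 4.3.3) left 14694 of 56287 entries. Libraries were scaled by TMM, and all 12 entered a robust quasi-likelihood fit with a group term and 8 residual degrees of freedom. P-values were adjusted by Benjamini-Hochberg, and standard errors (SE) come from the F statistic. Profiles used log2 CPM with a prior count of 2. Replicates differed by more than sampling noise (chi-square per degree of freedom 2.15 to 7.96). Named genes were all members, the 2 nearest profiles of each, up to 2 called genes of each list and comparison with the largest change, and Usp18, Irf3, Ifngr1 and Ifnb1; some genes the rule names are not reported here. Alternatives were other scalings and filters, DESeq2 1.42.0, the 2 groups compared alone, a replicate block and leaving out each library. Promoters came from RefSeq. Overlapping genes were read from GENCODE M21, whose build may not be the authors'; 9 of 9 member identifiers matched its names.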

Additional observations from a re-analysis of the deposited data

How the results depend on the processing

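Of 54 member values over 6 comparisons, 36 were called, 27 of these under all 19 alternatives, and the other 9 lost the call under some alternative, as given beside them. No called value changed sign. Values that were not called changed sign as follows. With library size alone as scaling, Ifnar2 was at -0.01122 with AOA and -0.005664 for HT-DNA+AOA against mock, and Socs1 at -0.04758 for HT-DNA+AOA+Asp against mock. Stat2 with Asp was at -0.009266 with DESeq2 size factors, -0.007686 with a filter of 1 CPM in 3 libraries, -0.009271 with DESeq2 and -0.004128 with the 2 groups alone. Leaving out each library gave ranges across 0 in HT-DNA against mock for Jak1 (-0.04686 to 0.002561), Irf9 (-0.08635 to 0.01469) and Irf7 (-0.05595 to 0.2487). The same held for Ifnar2 with AOA (-0.001088 to 0.09352), Stat2 with Asp (-0.03699 to 0.05374), Irf1 in HT-DNA+AOA+Asp against HT-DNA (-0.02374 to 0.04065), and against mock for Irf7 (-0.2191 to 0.08549) and Socs1 (-0.08838 to 0.1536). The genes called in HT-DNA+AOA+Asp against HT-DNA ranged from 1689 to 3077 in the leave-one-out fits. Under the other alternatives they ranged from 2248 to 3197. Library size alone moved the median of all genes by -0.119 in HT-DNA+AOA against mock. Same-numbered libraries showed little shared deviation (r from -0.151 to 0.0456). Deviations from means of only 3 libraries cannot exclude that equal numbers are paired. With a replicate block, 5, 6, 8 and 3 members were called in HT-DNA against mock, with AOA, with Asp and in HT-DNA+AOA+Asp against HT-DNA. The call lost was Jak1 with AOA (edgeR adjusted p = 0.0775). The causes were not tested. The 18 type I ligand genes together had 0 to 7 estimated counts in a library, too few to pass the filter.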
